A study of Mus musculus with 15 samples.

Results

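Nppa and Nppb, the genes of the natriuretic peptides ANP and BNP, were examined in the mouse embryonic heart, cell by cell, at 4 stages of heart tube formation and looping: E7.75 and E8.25, then E8.75 and E9.25 (embryonic days). They are 2 of the 23154 genes in the deposited tables and were taken by symbol; both were present in every library. The embryos carried Nkx2-5Cre::Rosa26tdTomato or Isl1Cre::Rosa26tdTomato. Nkx2-5 encodes a transcription factor of the early heart and Isl1 one of second heart field progenitors, and the Cre recombinase named for each turns on a red fluorescent reporter that a cell's descendants keep; the labels do not say how the Cre alleles were built. Both lineages carried the reporter, and no embryo without Cre was among the samples. Per the labels, cells were taken after FACS or after trypsin digestion alone, without saying which libraries had which, so a cell in a library is not known to be reporter-positive. The 8 groups of lineage and stage had 2 libraries each, except Isl1Cre at E9.25 with 1. In 7 groups both libraries carry the same embryo number, so the replicate spread behind each p-value may be technical, and lineage or stage cannot be told apart from the single embryos.

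ANP and BNP are peptide hormones made from longer precursors that heart muscle cells secrete. They act through the guanylyl cyclase receptor encoded by Npr1, which raises cGMP, and are removed by the clearance receptor encoded by Npr3. In the embryo Nppa is a classical marker of the working muscle of the forming atria and ventricles and is low in the muscle of the atrioventricular canal and outflow tract, where the repressors Tbx2 and Tbx3 are expressed. Nppb lies next to Nppa, is also made in the embryonic chambers, and is known in the adult for its response to wall stretch.

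Filtering left 1332 of 1400 cells (Nkx2-5Cre 738, Isl1Cre 594), and no cell name occurred in more than 1 library. Library totals over kept cells were 8165519 to 38321215 recovered counts, with a median of 92068 to 360929 counts per cell. Levels are CPM, a gene's counts scaled to the same total in every cell. Cells with at least 2000 CPM of Tnnt2, the troponin T of heart muscle, are called Tnnt2-high: there were 926, and 91 kept cells lay between 1500 and 2500 CPM. The 9 cardiomyocyte markers summed to 19888 to 47614 CPM in the Tnnt2-high cells of each library. Tnnt2-high cells made up 16 to 38 of the 85 to 94 kept cells of a library at E7.75 and 53 to 89 of 61 to 94 from E8.25 on. The 9 endothelial markers summed to 8.45 to 154.4 CPM in them and the endoderm markers to 15.8 to 494.3 CPM. Mesenchymal and cushion markers summed to 19.3 to 158 CPM. The 5 neural markers summed to 0.058 to 18.1 CPM, with Sox1 and Neurod1 at 0 and Pax6 at a mean of 3.12 CPM. Of the blood markers Hba-a1 was at 0, while Hba-x averaged 67.3 CPM and Hbb-bh1 88.4 CPM. Embryonic haemoglobin genes stood apart: over kept cells the 7 blood markers summed to 1181 and 1411 CPM in the Nkx2-5Cre E8.75 libraries and 221.9 CPM in Isl1Cre E9.25, against at most 21.8 CPM in the others. In the Tnnt2-high cells they summed to 402.5 and 1220.5 CPM in Nkx2-5Cre E8.75 and 223 CPM in Isl1Cre E9.25, against at most 3.03 CPM in the others. Their part in the results below was not tested.

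The genes lie side by side on mouse chromosome 4 (GRCm38, GENCODE annotation), both on the plus strand. Nppb spans chr4:147985788-147987205 and Nppa chr4:148000722-148002079, each with 3 exons and with 13516 bp between them. An annotated antisense gene, Gm13054, overlaps Nppa by 989 bp and is not a row of the tables. Whether counting used strand is not stated, so reads of Nppa and of its antisense partner cannot be told apart. The DNA just upstream is printed because members of the GATA, NK2 and T-box families, all expressed in these cells, are textbook regulators of both genes. Both genes were found in the RefSeq promoter table (GRCm38.p6). Capitals mark the GATA word (GATA after A or T and before A or G), the NK2 word AAGTG, the T-box word TCACACCT and the M-CAT word CATTCC, searched on both strands; those found do not overlap each other. For Nppa the 250 bases before the RefSeq start, chr4:148000472-148000721, are shown.
Nppa: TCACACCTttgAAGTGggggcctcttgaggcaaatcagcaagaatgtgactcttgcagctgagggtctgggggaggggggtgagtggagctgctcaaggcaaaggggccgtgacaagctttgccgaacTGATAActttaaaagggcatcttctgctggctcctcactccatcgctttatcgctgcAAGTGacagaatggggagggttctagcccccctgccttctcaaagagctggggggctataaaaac
For Nppb the window is shown up to the earliest annotated start, chr4:147985650-147985785, and then the stretch that holds its marked words, chr4:147985795-147985823, which lies inside the first exon of the GENCODE gene.
Nppb, upstream: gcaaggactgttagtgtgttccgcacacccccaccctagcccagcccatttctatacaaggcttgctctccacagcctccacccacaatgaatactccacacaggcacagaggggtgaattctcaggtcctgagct
Nppb, site stretch: GGAATGcagcTGATAAatcagAGATAAcc

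The Nppa window held TCACACCT at -250 to -243 from the RefSeq start, AAGTG at -239 to -235 and again at -65 to -61, and TGATAA at -122 to -117. The Nppb stretch held the M-CAT word on the minus strand at -105 to -100 and GATA words at -95 to -90 and -84 to -79. Apart from TCACACCT, these words are not rare. Over 32851 promoter windows of 250 bases, 26.5% held a GATA word, 40.7% AAGTG, 12.6% CATTCC and 1.12% TCACACCT. A match describes the letters only and shows no binding.

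Nppa was close to absent at E7.75 and rose steeply by E8.25 in both lineages. In Nkx2-5Cre the library means were 8.87 and 17.4 CPM at E7.75, 546 and 332 CPM at E8.25, 400.0 and 391 CPM at E8.75, and 1106 and 1309 CPM at E9.25. In Isl1Cre they were 3.69 and 2.80 CPM, then 123 and 67.5 CPM, then 500.1 and 354 CPM, and 1280.5 CPM in the single E9.25 library. Nkx2-5Cre was thus the higher lineage at E7.75 and E8.25 with no overlap of libraries, and the lineages overlapped at E8.75. Ordered by group mean, Isl1Cre E7.75 (3.24 ± 0.63 CPM, SD, n = 2) was lowest, followed by Nkx2-5Cre E7.75 (13.1 ± 6.0, n = 2) and Isl1Cre E8.25 (95.04 ± 38.96, n = 2). Nkx2-5Cre E8.75 (395.6 ± 6.3), Isl1Cre E8.75 (427 ± 103) and Nkx2-5Cre E8.25 (439 ± 151, each n = 2) came next and overlapped one another. Nkx2-5Cre E9.25 (1207 ± 143, n = 2) and the Isl1Cre E9.25 library overlapped at the top.

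Nppb rose over the same first interval and then followed another course. In Nkx2-5Cre the library means were 17.3 and 7.73 CPM at E7.75, 288 and 142 CPM at E8.25, 285 and 276 CPM at E8.75, and 176 and 227 CPM at E9.25. In Isl1Cre they were 9.37 and 5.70 CPM, then 64.4 and 80.7 CPM, then 154 and 74.2 CPM, and 437 CPM at E9.25. The E7.75 groups overlapped each other and lay below all later ones. In Nkx2-5Cre the E8.25 libraries spanned a range that met both E8.75 and E9.25, while the E9.25 libraries lay below those of E8.75. Isl1Cre E8.25 overlapped Isl1Cre E8.75, whose higher library was above the lower one of Nkx2-5Cre E8.25, and the Isl1Cre E9.25 library was above all.

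**Figure D1:**
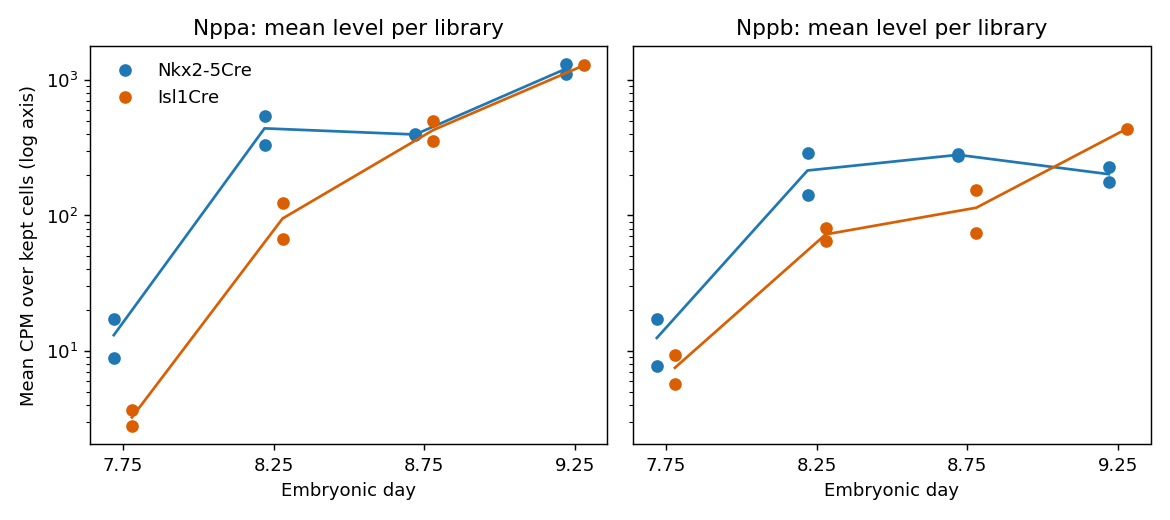
Mean CPM of Nppa (left) and Nppb (right) over the kept cells of each library, on a log axis, against embryonic day. Each point is 1 library and lines join group means; the Isl1Cre points lie below the Nkx2-5Cre points at E8.25 for both genes, and for Nppa the lineages meet at E8.75 while for Nppb the single Isl1Cre E9.25 library lies above both Nkx2-5Cre libraries.

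The stage steps were tested over all genes with limma on log2(mean CPM + 1), with Benjamini-Hochberg adjustment. From E7.75 to E8.25, Nppa rose by 4.99 ± 0.30 (log2 ± SE, adjusted p = 2.5e-09) in Nkx2-5Cre and by 4.38 ± 0.30 (adjusted p = 8.2e-09) in Isl1Cre, on a scale that understates the change of low genes. Nppb rose by 4.01 ± 0.36 (adjusted p = 5.2e-07) and 3.06 ± 0.36 (adjusted p = 9.3e-06). Of all genes tested, 13.8% passed in this step in Nkx2-5Cre and 12.2% in Isl1Cre. All 24 tested sarcomere genes rose with them in each lineage, and the sum of the 9 cardiomyocyte markers went from 14541 to 15939.5 CPM to 36499 to 39565 CPM in Nkx2-5Cre and from 7147 to 8124 CPM to 23465 to 24201 CPM in Isl1Cre.

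Within Tnnt2-high cells the first step was present too. Their library means of Nppa were 10.6 and 39.4 CPM at E7.75 and 617 and 405 CPM at E8.25 in Nkx2-5Cre, and 3.85 and 4.70 CPM at E7.75 and 178 and 93.8 CPM at E8.25 in Isl1Cre. For Nppb they were 16.0 and 12.3 CPM, then 326 and 175 CPM, in Nkx2-5Cre, and 39.1 and 1.799 CPM, then 89.5 and 118 CPM, in Isl1Cre. No E8.25 library overlapped an E7.75 library of its lineage. Over the same step in these cells the endoderm markers went from 182.8 to 494.3 CPM to 49.96 to 53.4 CPM in Nkx2-5Cre and from 40.3 to 110.4 CPM to 116 to 213 CPM in Isl1Cre, and the mesenchymal markers from 88.7 to 134 CPM to 25.5 to 26.8 CPM and from 99.2 to 158 CPM to 47.9 to 77.2 CPM; their part was not tested. The Isl1Cre value of 39.1 CPM came from 16 cells, of which 1 held 461 CPM.

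After E8.25 the steps were smaller. In Isl1Cre, Nppa rose again from E8.25 to E8.75, by 2.24 ± 0.30 (limma adjusted p = 0.00013; 10.9% of genes passed), while Nppb was at 0.61 ± 0.36 (adjusted p = 0.308). In Nkx2-5Cre neither gene passed over that interval (Nppa -0.09 ± 0.30, adjusted p = 0.961; Nppb 0.48 ± 0.36, adjusted p = 0.733; 0.244% of genes passed). From E8.75 to E9.25, Nppa rose by 1.59 ± 0.30 (adjusted p = 0.0096; 1.62% passed) in Nkx2-5Cre and by 1.67 ± 0.37 (adjusted p = 0.046; 0.553% passed) in Isl1Cre. Nppb was at -0.50 ± 0.36 (adjusted p = 0.626) in Nkx2-5Cre and rose by 2.08 ± 0.44 (adjusted p = 0.034) in Isl1Cre. The Isl1Cre values at E9.25 rest on 1 library, and the last-step calls were lost when some single libraries were left out: 3 of 15 for Nppa in Nkx2-5Cre, 8 of 14 for Nppa and 5 of 14 for Nppb in Isl1Cre. Among Tnnt2-high cells of the 11 libraries from E8.25 on, Nppa rose by 2.31 ± 0.35 log2 units per day with lineage as an additive term (adjusted p = 0.0017; 1.73% of genes passed) and Nppb was at 0.77 ± 0.36 (adjusted p = 0.30).

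Between lineages, the clearest difference was at E8.25, where both genes were lower in Isl1Cre, Nppa at a log2 difference of -2.24 ± 0.30 (limma adjusted p = 0.00024) and Nppb at -1.502 ± 0.360 (adjusted p = 0.019); 5.11% of genes passed there. At that stage the endoderm markers summed to 488 to 563 CPM over the kept cells of Isl1Cre and 51.6 to 54.6 CPM in Nkx2-5Cre, and their part was not tested. The Nppa call at E8.25 held in every alternative run. That for Nppb was lost with DESeq2 on summed counts (adjusted p = 0.247) and without either Isl1Cre E8.25 library or the first Nkx2-5Cre one (adjusted p up to 0.241). At E7.75 Nppa was lower in Isl1Cre (-1.64 ± 0.30, adjusted p = 0.0021; 7.13% passed) and Nppb was at -0.56 ± 0.36 (adjusted p = 0.415). This Nppa difference lay between means of a few CPM and turned to 0.43 when the shallow cells left out elsewhere were included, among them an Isl1Cre cell with 400 counts whose single Nppa count equals 2500 CPM. At E8.75 Nppa was at 0.09 ± 0.30 (adjusted p = 0.938) and Nppb at -1.38 ± 0.36 (adjusted p = 0.114; 0.319% passed), and at E9.25 they were at 0.17 ± 0.37 (adjusted p = 0.908) and 1.20 ± 0.44 (adjusted p = 0.229; 0.975% passed).

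Averaged over the 4 stages, Isl1Cre minus Nkx2-5Cre was -0.90 ± 0.16 for Nppa (limma adjusted p = 0.0020) and -0.56 ± 0.19 for Nppb (adjusted p = 0.087), beside 7.35% of genes that passed. The Nppa call was lost with all deposited cells (-0.37, adjusted p = 0.418) and with the libraries of a group averaged to 1 unit (-0.91, adjusted p = 0.538), and Nppb passed without the Isl1Cre E9.25 library (-1.14, adjusted p = 0.0021). The change per day differed between lineages for Nppa, by 1.55 ± 0.30 log2 units per day steeper in Isl1Cre (adjusted p = 0.0062; 2.58% of genes passed), and by 1.08 ± 0.36 for Nppb (adjusted p = 0.118). Of 24 tested sarcomere genes 19 were lower in Isl1Cre in the averaged contrast and none higher; the part of this in the Nppa difference was not tested over all kept cells. Among Tnnt2-high cells the averaged difference was -1.04 ± 0.31 for Nppa (adjusted p = 0.108) and -0.63 ± 0.41 for Nppb (adjusted p = 0.513), with 0.979% of genes past the threshold: the estimate for Nppa was as large as over all kept cells and did not pass.

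Almost every cell from E8.25 on held some count of either gene, and most of this share was also seen in cells that should lack the genes. Of 812 Tnnt2-high cells from E8.25 on, 93.0% had an Nppa count and 87.1% an Nppb count. Cells with endothelial markers and under 500 CPM of Tnnt2, which should lack both genes, had an Nppa count in 43 of 49 (87.8%) and an Nppb count in 32 of 49 (65.3%), at median depths of 126956 counts against 111986 in the Tnnt2-high cells. Their levels were low: a median of 21.6 CPM and at most 224 CPM for Nppa, and a median of 9.67 and at most 61.3 CPM for Nppb. In the Nkx2-5Cre libraries their Nppa median was 2.49 CPM at E7.75, 15.5 CPM at E8.25, 31.0 CPM at E8.75 (3 cells) and 76.2 CPM at E9.25. Over all kept cells the share with a count, averaged over stages, was 83.2% for Nppa and 82.5% for Nppb in Nkx2-5Cre and 72.5% and 67.0% in Isl1Cre. The lineage difference was -10.7 percentage points for Nppa (exact two-sided permutation p = 0.088, adjusted over both genes 0.088) and -15.5 for Nppb (exact p = 0.031, adjusted 0.062). With every cell thinned to 20000 counts it was -3.17 points (exact p = 0.608) and -4.10 points (exact p = 0.577).

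The level among cells with a count, and not only the share, was higher at E9.25 than at E7.75. In kept cells with an Nppa count the median was 3.83 and 5.78 CPM in the Nkx2-5Cre E7.75 libraries, where 1 count in the median cell is worth 2.77 and 4.91 CPM, and 8.99 and 10.1 CPM in Isl1Cre, where it is worth 9.49 and 7.83 CPM. The positive cells at E7.75 thus held few counts of Nppa, a median of 2 in both Nkx2-5Cre libraries and of 1 in both Isl1Cre libraries. By E9.25 the median was 211 and 201 CPM in Nkx2-5Cre and 674 CPM in Isl1Cre. For Nppb the medians of positive cells were 9.24 and 5.76 CPM at E7.75 and 63.7 and 55.3 CPM at E9.25 in Nkx2-5Cre, and 10.4 and 8.42 CPM at E7.75 and 216 CPM at E9.25 in Isl1Cre. Between these stages the medians did not rise steadily. In Nkx2-5Cre those of Nppa were 88.4 and 40.4 CPM at E8.25 and 46.9 and 62.7 CPM at E8.75. Those of Nppb were 62.8 and 29.65 CPM, then 47.15 and 55.15 CPM. In Isl1Cre they were 30.2 and 25.1, then 80.7 and 67.5 CPM for Nppa, and 25.5 and 24.0, then 26.9 and 23.75 CPM for Nppb.

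A level of 300 CPM, chosen after the data were seen because it lies above every endothelial-marker or endoderm-marker cell with little Tnnt2, was used to count cells with high expression. At E7.75 only 2 of 360 kept cells reached it for Nppa, both in 1 Nkx2-5Cre library with a highest value of 736 CPM, and 3 for Nppb. From E8.25 on, 261 of 812 Tnnt2-high cells were Nppa-high and 150 Nppb-high. Outside the Tnnt2-high cells 5 kept cells were Nppa-high, all at E9.25, and 2 were Nppb-high. All 159 cells with at least 1000 CPM of Nppa and all 53 with at least 1000 CPM of Nppb were Tnnt2-high, and none came from E7.75; the lowest Tnnt2 among them was 2314 CPM and 2823 CPM.

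Among Tnnt2-high cells the share of Nppa-high cells was 39.0% and 30.7% in the Nkx2-5Cre E8.25 libraries, 21.2% and 14.1% at E8.75, and 46.2% and 42.7% at E9.25. In Isl1Cre it was 16.7% and 8.77% at E8.25, 32.1% and 23.3% at E8.75, and 66.3% in the E9.25 library. At E8.25 Isl1Cre had the lower shares, and at E8.75 and E9.25 the higher ones, without overlap of libraries. Nppb-high cells made up 26.8% and 17.3%, then 20% and 16.5%, then 17.9% and 22.7% in Nkx2-5Cre, and 8.33% and 7.02%, then 11.3% and 9.59%, then 34.8% in Isl1Cre. Over kept cells of all stages the share of Nppa-high cells rose by 20.6 percentage points per day in Nkx2-5Cre (exact permutation p = 0.027, adjusted over the 4 slopes 0.036) and by 38.1 in Isl1Cre (exact p = 0.0016, adjusted 0.0032). For Nppb-high cells the slopes were 9.76 points in Nkx2-5Cre (exact p = 0.055) and 17.7 in Isl1Cre (exact p = 0.0016, adjusted 0.0032). The lineage difference over stages was 2.70 points for Nppa (exact p = 0.694) and -1.08 for Nppb (exact p = 0.796), so its sign for Nppa depended on the level that counted as positive.

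**Figure D2:**
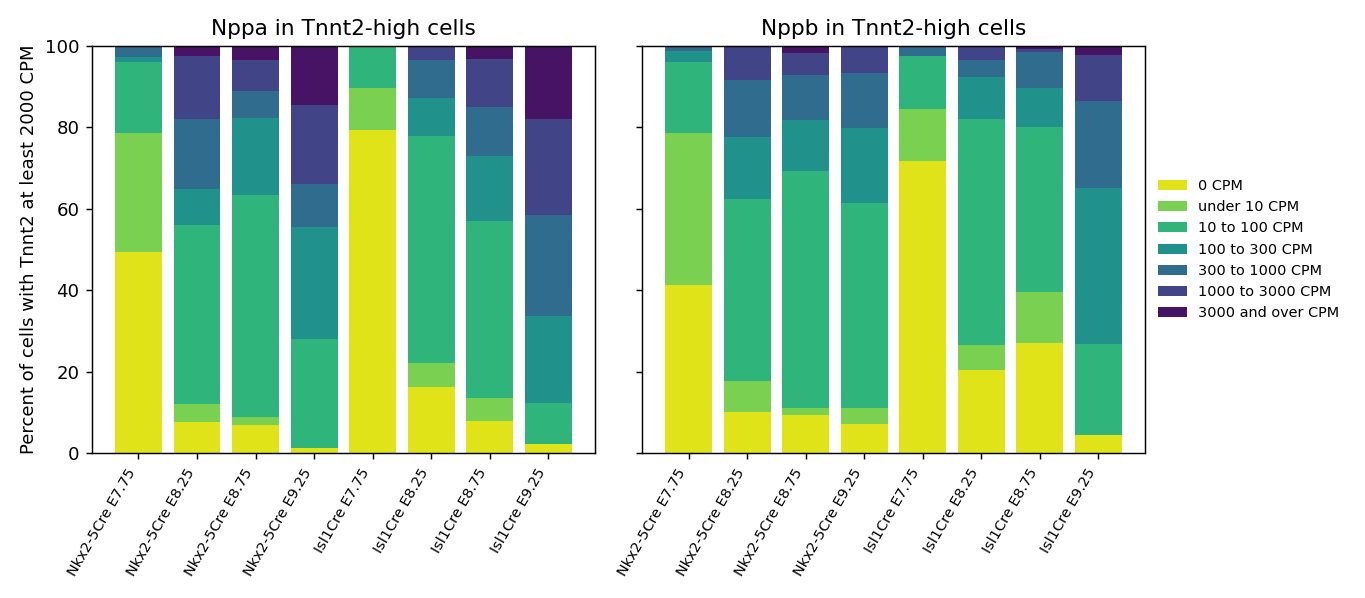
Percent of Tnnt2-high cells in 7 level classes of Nppa (left) and Nppb (right) in each group, the libraries of a group pooled. Cells listed at 0 dominate Isl1Cre E7.75, and the classes from 300 CPM up hold 66.3% of Isl1Cre E9.25 cells for Nppa and 34.8% for Nppb.

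Expression was spread unevenly over cells of the same library. The top 10% of Tnnt2-high cells held 35.4% of all Nppa CPM in Isl1Cre E9.25, 53.7% and 57.5% in Nkx2-5Cre E9.25, and 68.4% and 82.0% in Nkx2-5Cre E8.75. In the latter 2 libraries single cells reached 6653 and 10257 CPM while the medians were 40.8 and 59.6 CPM. The highest value of all was 16071 CPM, in Nkx2-5Cre E9.25. For Nppb the top 10% held 45.1% in Isl1Cre E9.25 and 51.7% to 80.9% in the other libraries from E8.25 on, with a highest cell of 6481 CPM.

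High Nppa and high Nppb occurred in the same cells more often than the product of their shares. Of the 812 Tnnt2-high cells from E8.25 on, 118 (14.5%) were high for both, where the product of the shares is 5.94%. These were 45.2% of the Nppa-high and 78.7% of the Nppb-high cells. In Nkx2-5Cre 77 of 153 Nppa-high and of 97 Nppb-high cells were high for both, and in Isl1Cre 41 of 108 and of 53. The observed share was above the product in each of the 11 libraries, by most in Nkx2-5Cre E8.25 library 1 (26.8% against 10.47%) and by least as a ratio in Isl1Cre E9.25 (28.1% against 23.1%). Cells within a library share its embryo and stage, so the counts describe these libraries.

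**Figure D3:**
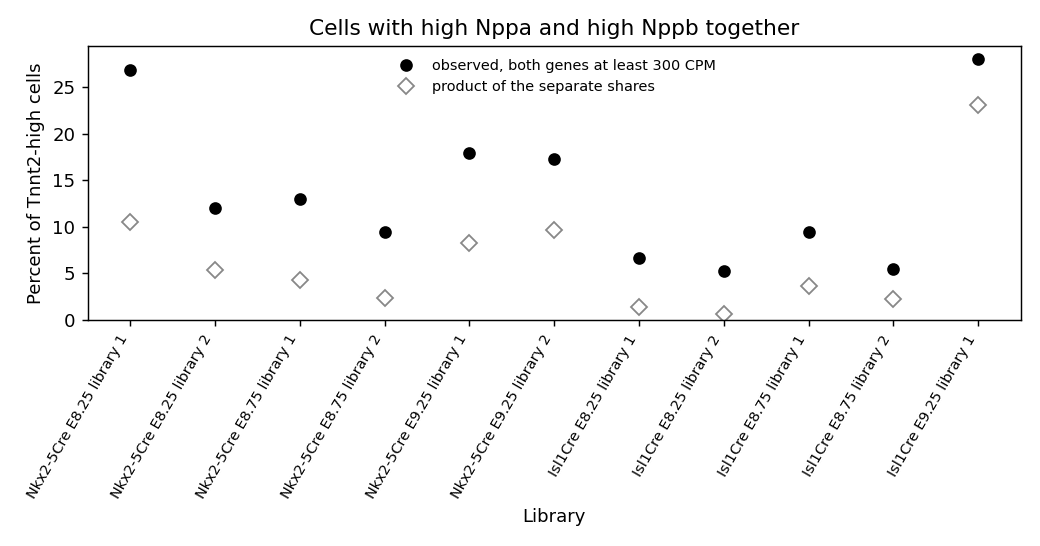
Percent of Tnnt2-high cells with at least 300 CPM of both genes in each library from E8.25 on (filled) and the product of the 2 separate shares (open). The filled point lies above the open one in each of the 11 libraries.

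Genes that tracked Nppa were ranked by Spearman rho across Tnnt2-high cells within each of 14 libraries with at least 20 such cells (831 cells, 9172 genes), averaged over libraries; this is a description without a test, and the cells of a library share its depth. Nppb ranked first for Nppa and Nppa first for Nppb, with a mean rho of 0.50, and of 0.57 over the 11 libraries from E8.25 on. Among these 11 libraries rho was lowest, at 0.35, in Isl1Cre E8.25 library 1 and in Isl1Cre E9.25, and highest, at 0.70, in Isl1Cre E8.75 library 1. The median of all genes was 0.03. Nppa had a mean rho of 0.11 with cell depth and of -0.08 with Tnnt2.

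After Nppb, the genes with the highest mean rho were Smpx (0.41, positive in 13 of 14 libraries), a small muscle protein of chamber myocardium, Myl2 (0.36, 12 of 14), the ventricular regulatory light chain, and the imprinted gene Mest (0.33, 13 of 14). Myl1, a myosin essential light chain, and Trdn, the triadin of the calcium release complex, each had 0.31 and were positive in 14 of 14. Fam195a (0.31), Tgfbr3 (0.29), a co-receptor for TGF-beta ligands, Tmem163 (0.29), Ppp1r17 (0.29), Atp5g1 (0.28), a subunit of ATP synthase, Svip (0.27) and Hspe1 (0.27), a mitochondrial chaperonin, completed the first 12. At the other end stood Igfbp5 (-0.35, negative in 13 of 14), a binding protein of insulin-like growth factors, Tmsb10 (-0.33), Tuba1a (-0.32), Actb (-0.29), Mdk, Vim and Prtg (each -0.25) and Ftl1 (-0.25). Tuba1a and Actb, cytoskeletal genes, were negative in 14 of 14. For Nppb the leading genes were Smpx (0.35), Myl2 (0.30), Csrp3 (0.29), Wt1 (0.28), Acta1 (0.26), Tgfbr3 (0.26), Fam195a (0.25) and Emilin2 (0.25). Csrp3, a muscle LIM protein of the Z-disc, and Acta1, skeletal actin of the fetal heart, were positive in 14 of 14 libraries.

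By list, the 11 ranked chamber myocardium genes all had a positive mean rho with Nppa (median 0.08) and the 11 ventricular genes 9 times (median 0.14). The median over all ranked genes was 0.03. None of the 11 ranked genes of atrioventricular canal and outflow tract myocardium was positive (median -0.15), and of the 14 activators of the natriuretic peptide genes 3 were (median -0.11). Across the 15 libraries, rather than across cells, the genes whose mean level was most like Nppa by Pearson r were Fxyd1 (0.987), Hspb1 (0.986), Mlip (0.985), Myl2 (0.984), Hk1 (0.981) and Pfkp (0.979). Nppb had 0.945. These points share the stages, and libraries of a group share an embryo number.

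To show what Nppa-high cells looked like, Tnnt2-high cells with at least 300 CPM of Nppa were set against those under 100 CPM in the same library, in the 11 libraries from E8.25 on. The pair of levels was chosen after the data were seen, and values are mean log2 ratios ± SD over libraries (n = 11). The split uses the Nppa levels of largely the same cells as the ranking by rho, so it is no separate support for it. Nppb was higher by 3.20 ± 0.88, from 70.1 ± 49.5 to 610.2 ± 362 CPM, and in 11 of 11 libraries. Tnnt2 itself was at -0.11 ± 0.20. Over all ranked genes, 1.01% were higher and 1.22% lower in every library.

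Some genes of chamber or ventricular muscle, and Tgfbr3, were higher in the Nppa-high cells. Tgfbr3 had a log2 ratio of 2.77 ± 1.41, Smpx of 1.45 ± 0.31 (547 against 200.02 CPM) and Myl2 of 1.07 ± 0.33, each in 11 of 11 libraries. Like Nppb, these genes had led the ranking by rho with Nppa across largely the same cells. Their direction here was thus close to fixed by that ranking and is no separate result. The gap junction genes Gja1 and Gja5 were at 1.89 ± 1.45 (9 of 11) and 1.51 ± 0.98 (10 of 11), at 29.2 and 4.92 CPM in the Nppa-high cells. Irx4, a ventricular transcription factor, was at 0.73 ± 0.61 (11 of 11). The 11 chamber genes detected in at least 20% of cells all had a mean ratio above 0 (median 0.33), and 1 of them, Smpx, was higher in all libraries. All 11 had also had a positive mean rho with Nppa across largely the same cells, so this list count is no separate result. Of all 9172 ranked genes, 3487 had a mean ratio above 0 (median -0.09). Gja5 was detected in fewer cells and is not among the 11 chamber genes. For several the ratio was within its spread, such as Popdc2 (0.10 ± 0.41), Atp2a2 (0.15 ± 0.42) and Ryr2 (0.23 ± 0.35).

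Several genes of atrioventricular canal and outflow tract muscle were lower. Bmp4, a ligand of the outflow tract, was at -2.93 ± 0.74 (4.65 against 40.3 CPM), Rspo3, a Wnt agonist, at -2.68 ± 1.01, Tbx2, the repressor of chamber genes, at -2.22 ± 0.83 (4.01 against 19.9 CPM), and Tdgf1, a Nodal co-receptor, at -2.09 ± 0.91, each lower in 11 of 11 libraries. Isl1 was at -2.35 ± 1.46 and Bmp2 at -1.98 ± 1.15, each lower in 10 of 11, and Tbx3 at -0.93 ± 0.93 (10 of 11). Outside that list, Igfbp5 (-1.84 ± 0.76) and Wnt2 (-1.57 ± 0.52) were lower in 11 of 11. Igfbp5 had already been lowest by rho with Nppa across largely the same cells, so its direction is no separate result. Of the list, Sema3c was at -0.24 ± 1.03 and higher in 6 of 11, and Fgf10 at -0.27 ± 1.88 and higher in 5 of 11. Of the 11 ranked atrioventricular canal and outflow tract genes none had a mean ratio above 0, beside 3487 of all 9172 ranked genes. In all 11 libraries 4 of these 11 genes were lower (36.4%, beside 1.22% of all genes). None of the 11 had a positive mean rho with Nppa across largely the same cells either, so these list counts are no separate result. Among factors known to activate Nppa, Gata5 (-0.83 ± 0.47) and Mef2c (-0.83 ± 0.25) were lower in 11 of 11, Gata4 was at -0.42 ± 0.44 (lower in 10), Nkx2-5 at -0.27 ± 0.31 (lower in 9) and Tbx5 at -0.13 ± 1.03 (lower in 6). The median depth of the Nppa-high cells was above that of the low cells in 7 of 11 libraries, 252320 against 158161 counts in Nkx2-5Cre E8.25 library 1 and 84487 against 108726 in Isl1Cre E9.25; its part in these ratios was not tested.

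**Figure D4:**
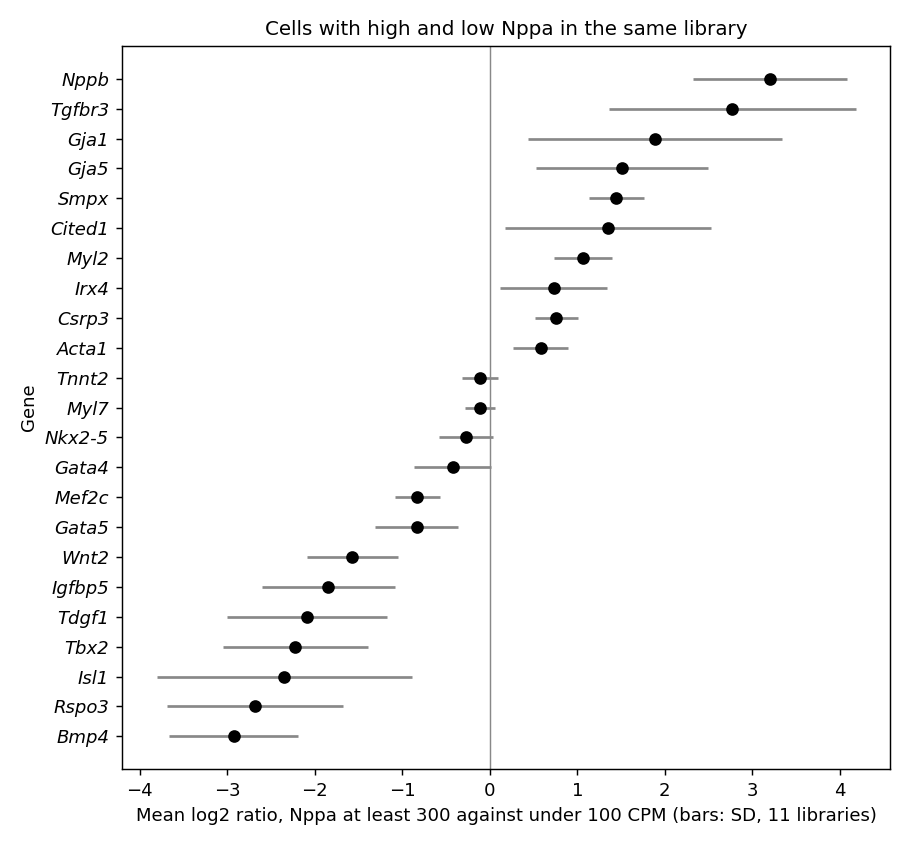
Mean log2 ratio of 23 genes between Tnnt2-high cells with at least 300 CPM and under 100 CPM of Nppa in the same library; bars are SD over 11 libraries and the pseudocount is 1 CPM. Nppb, Tgfbr3 and Smpx lie to the right, Tnnt2 near 0, and Bmp4, Rspo3, Isl1 and Tbx2 to the left.

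Cells high for both peptides were set against cells high for Nppa alone (under 300 CPM of Nppb) in the same library. In the 7 libraries with at least 5 cells of each kind, 99 cells were compared with 118. Nppa itself was higher in the cells high for both, at 2693 against 1567 CPM, by 0.75 ± 0.35 (log2 ± SD) in 7 of 7 libraries. Differences that go with Nppb and those that go with this higher Nppa level therefore cannot be told apart here. Some contractile and stress-related genes were higher in the cells high for both: Myh7, the slow myosin heavy chain, by 0.62 ± 0.34 (log2 ± SD, n = 7), Csrp3 by 0.48 ± 0.18, Actc1, cardiac actin, by 0.28 ± 0.11 and the immediate early gene Fos by 0.53 ± 0.46, each in 7 of 7 libraries, where 0.850% of genes were. Ankrd1, a stretch-responsive ankyrin repeat gene, was at 0.89 ± 0.60 (6 of 7) and Acta1 at 0.43 ± 0.34 (6 of 7). Of the 15 genes of the stretch and fetal program, 14 had a mean ratio above 0 (median 0.48), against 9 of 11 chamber genes (median 0.11) and 3 of 11 canal and outflow genes (median -0.38). Of the sarcomere genes 20 of 24 were above 0 (median 0.12). The stretch and sarcomere lists each had 3 genes higher in all libraries, and they share Csrp3, Myh7 and Acta1. The share of all genes with a mean ratio above 0 was not counted for this comparison. Vim, an intermediate filament of mesenchymal cells, was lower in 7 of 7 (-0.53 ± 0.53). These genes were singled out after their values were seen.

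Most other genes of the natriuretic peptide pathway had low levels, and the highest library medians were those of Prkg1, the cGMP-dependent kinase (59.15 CPM, 6.23 to 94.6), and Ide, the insulin-degrading enzyme (33.7 CPM, 18.5 to 57.8). Over the 15 libraries the third peptide gene Nppc had a median of 0 and at most 1.56 CPM, and Ostn, a ligand of the clearance receptor, was at 0 in every library. Npr1 ranged from 1.18 to 16.0 CPM, Npr3 from 4.90 to 36.8 CPM and Npr2, the receptor of Nppc's peptide, from 0 to 5.85 CPM. Corin, the protease that cleaves pro-ANP, ranged from 0.68 to 7.77 CPM and Furin, a protease of pro-BNP, from 11.6 to 31.3 CPM. Of the 16 genes of the list 10 could be tested and none passed in the averaged lineage contrast (median log2 change -0.12, all genes -0.01). In the step from E7.75 to E8.25 in Nkx2-5Cre, where 13.8% of all genes passed, 2 of the 10 rose and 1 fell. Npr3 rose by 1.53 ± 0.41 (limma adjusted p = 0.018) and Prkg1 by 1.28 ± 0.31 (adjusted p = 0.010), while Mme, the peptide-degrading neprilysin, was at -1.45 ± 0.36 (adjusted p = 0.010). In Isl1Cre, where 12.2% of all genes passed, Prkg1 rose by 2.26 ± 0.31 (adjusted p = 6.7e-05) and none fell; 1 of 10 is near that share. Within the high and low Nppa cells, Mme was lower in the Nppa-high cells in 11 of 11 libraries (-1.60 ± 0.91), and Npr1 (-0.42 ± 0.82), Corin (-0.44 ± 1.88) and Prkg1 (0.03 ± 0.57) differed by less than the spread between libraries.

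Known regulators and chamber genes were read in the averaged lineage contrast, in which 7.35% of all genes passed; 1 or 2 calls in a list of this size are near that share. Of 14 activators, Nkx2-5 was higher in Isl1Cre by 0.28 ± 0.09 (limma adjusted p = 0.049); of 9 repressors, Msx2 was at -0.50 ± 0.15 (adjusted p = 0.048). Of 14 tested chamber genes Gja1 was higher (0.58 ± 0.14, adjusted p = 0.014) and Cited1 (-0.75 ± 0.17, adjusted p = 0.012) and Popdc2 (-0.28 ± 0.08, adjusted p = 0.038) were lower. Lower in Isl1Cre were also 3 of 13 canal and outflow genes, among them Isl1 (-0.997 ± 0.213) and Tgfb2 (-0.84 ± 0.12), and 3 of 11 atrial genes, among them Vsnl1 (-1.09 ± 0.23) and Myh6 (-0.49 ± 0.09). Nkx2-5 and Isl1 were each lower in the line whose Cre is named for them. For these genes the Cre allele and the lineage cannot be told apart. Of 11 ventricular genes 6 were lower, Lbh (-0.84 ± 0.12) and Cck (-0.84 ± 0.10) the most, and of the sarcomere genes Actn2 (-0.90 ± 0.11) and Tnni3 (-0.85 ± 0.09) the most. Of 15 stretch and fetal program genes 4 were lower, Hspb7 (-0.70 ± 0.15) and Acta1 (-0.64 ± 0.11) the most. All of these passed the adjusted limma threshold of 0.05, and no gene of these last 5 lists was higher.

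The genes next to Nppa and Nppb on the chromosome had their own levels. Clcn6, whose end lies 2179 bp beyond Nppa, had a library median of 0.59 CPM and at most 4.94 CPM. Plod1 had a median of 22.4 CPM and Mfn2 of 32.4 CPM. Of 8 tested neighbours none passed in the averaged lineage contrast. From E7.75 to E8.25 in Nkx2-5Cre (13.8% of all genes passed), Agtrap rose by 1.45 ± 0.32, Plod1 by 1.42 ± 0.34 and Mfn2 by 1.07 ± 0.34 (limma adjusted p = 0.0051, 0.0082 and 0.040), and in Isl1Cre Plod1 rose by 1.15 ± 0.34 (adjusted p = 0.032), 1 of 8 beside 12.2% of all genes.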

How the data were processed

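The series has 15 single-cell libraries made with a modified Smart-seq2 protocol with cell barcodes, molecular identifiers and capture of 3' ends, per the labels' protocols. Software listed in the submitters' processing notes is CASAVA 1.8, TopHat2 2.0.12 and HTSeq, with mm10 as the genome; parameters are not given in the sources used here. The values the authors deposited are CPM per gene and cell. Every low value (up to 20 steps) was a whole multiple, within 0.1 of a step, of what 1 count is worth in its cell (100% in every library), so whole counts were recovered; no source used here says if these count reads or molecular identifiers.

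Cells with at least 2000 counts and 1000 genes were kept. Doublets were not called, because cells were picked one by one. Lineage was read from the N or I of each title, and stage from its label. Each library was summarised as mean CPM over kept cells and tested with limma 3.58.1 (R 4.3.3; trended empirical Bayes) on log2(mean CPM + 1) after TMM scaling with edgeR 4.0.16 (factors 0.955 to 1.042), for the 10665 genes with at least 5 CPM in at least 2 libraries, with a mean for each group (7 residual degrees of freedom). The single Isl1Cre E9.25 library was thus assumed to vary like the others. Adjusted p-values are limma with Benjamini-Hochberg over all genes, threshold 0.05. The written design had edgeR as the test for a count table. The deposited values being CPM, edgeR and DESeq2 1.42.0 on summed recovered counts were alternatives. Exact two-sided permutation tests over libraries compared shares of cells, permuting lineage within stage (648 arrangements) or stage within lineage (2520 and 630). Tests used Tnnt2-high cells in libraries with at least 10 of them. Simulated counts (9838 genes) had the same spread for every gene and no effect of stage or embryo, and only the averaged lineage contrast was read. There 100% of 100 genes changed by log2 1 and of 100 changed by log2 2 were called, with 0.104% of unchanged genes. The share of real changes that the tests would call, in this or the other contrasts, was not measured. Other alternatives were the pseudocount, no filter, all deposited cells, thinned cells, the Tnnt2 level, each library left out and the replicate block.

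The genes named are the 12 highest and 8 lowest by mean rho with Nppa, the 8 highest with Nppb, the 6 most like Nppa across libraries, and the list genes past the averaged lineage contrast (the 2 largest in each direction per list); a few genes are not reported here. The genes, lists and tests were chosen with earlier results of these data known. The 300 CPM level and the comparisons of high with low cells were chosen after the data were seen. Promoter letters are from RefSeq. Intervals of counting error are not given, since results are compared over libraries.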

Additional observations from a re-analysis of the deposited data

Results flagged for a closer look

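The change of Nppa per day was steeper in Isl1Cre than in Nkx2-5Cre by 1.55 log2 units, and the test of this difference itself passed (limma adjusted p = 0.0062). It was 1.26 to 2.76 when each library was left out in turn and 0.33 with all deposited cells, where it did not pass. From E8.75 to E9.25 Nppb was at -0.50 in Nkx2-5Cre and at 2.08 in Isl1Cre, estimates of opposite sign; the second rests on a single Isl1Cre E9.25 library, and the difference between these 2 steps was not tested. The test over all stages, of the change per day, gave 1.08 for Nppb (limma adjusted p = 0.118).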

How the results depend on the processing

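Of 780 alternatives computed for 36 results, 710 kept the direction and the side of the threshold, or stayed within 1.5 times a count; 37 of the other 70 came from leaving out 1 library. All values here are log2 differences or changes unless named otherwise, and the cause of each change was not tested. The steps from E7.75 to E8.25, the step of Nppa from E8.25 to E8.75 in Isl1Cre and the Nppa difference at E8.25 kept their calls in every alternative. With all deposited cells, Nppa was at -0.37 (lineage average), 0.43 (E7.75), 1.57 (last step in Nkx2-5Cre and in Isl1Cre) and 0.33 (change per day), and Nppb at -1.36 (E8.25), none past the threshold. With 1 unit per group the Nppa average was -0.91 and not past it; 0 genes passed there with limma (868 at an unadjusted p under 0.05), with 784 in the main fit, 740 with edgeR and 1044 with DESeq2. With no filter on low values, Nppa was at -1.66 (E7.75), 1.58 and 1.66 (last steps), 1.56 (difference in change per day) and 2.30 (per day, Tnnt2-high), and Nppb at -1.50 (E8.25) and 2.07 (last step, Isl1Cre), none past it. With a pseudocount of 10 Nppa at E7.75 was -0.77, and with 0.1 its last step in Isl1Cre was 1.67, neither past it. EdgeR gave -0.97 for the Nppb average, past the threshold, and -0.59 and 0.24 for Nppa at E8.75 and for its Nkx2-5Cre step from E8.25; DESeq2 gave -0.60 and 0.26 there, and for Nppb -1.91 (E8.25) and 2.35 (last step, Isl1Cre), not past it.

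With each library left out, Nppb ranged from -1.14 to -0.43 in the lineage average, -2.02 to -0.99 at E8.25, -0.034 to 0.995 in its Nkx2-5Cre step from E8.25, 1.57 to 2.59 in its last Isl1Cre step and 0.80 to 1.38 in the difference in change per day. Nppa ranged from -0.14 to 0.33 at E8.75, -0.46 to 0.27 in its Nkx2-5Cre step from E8.25, and 1.46 to 1.70 and 1.42 to 1.90 in its last steps.

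For shares of cells with a count, the lineage difference of Nppa was 0.62 points at 5000 counts per cell, 2.70 at 300 CPM and 0.75 at 1000 CPM, and that of Nppb 1.59 at 100 CPM, all of the other sign than the main value and not past the threshold. The Nppb change per day in Nkx2-5Cre passed at 31.3 (20000 counts), 21.8 (5000 counts) and 18.1 points (100 CPM). With a library left out the lineage difference was -14.1 to -8.83 points for Nppa and -21.9 to -11.8 for Nppb, and the changes per day were 46.6 to 77.2 for Nppa in Isl1Cre, 9.28 to 22.7 for Nppb in Nkx2-5Cre and 37.2 to 50.7 for Nppb in Isl1Cre.

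Same-numbered libraries did not vary together (correlations of -0.03 to 0.17, 1 of 21 over 0.1), so the numbers do not pair them. With the replicate block, fitted without the Isl1Cre E9.25 library, the Nppb lineage average was -1.14 (limma adjusted p = 0.00064), the value that leaving out that library gives; genes past the threshold for the difference in change per day went from 275 to 912 and for the change per day in Tnnt2-high cells from 177 to 45. Of the 12 genes leading for Nppa 10 stayed with Pearson r, 8 after thinning and 10 in late libraries; of the 8 for Nppb 6, 3 and 5 did. Over alternatives, genes past the threshold were 0 to 1044 (lineage average), 318 to 946 (E7.75), 148 to 880 (E8.25), 15 to 115 (E8.75), 25 to 231 (E9.25), and 4 to 184 (lineage, Tnnt2-high).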

Other observations

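Wt1, a transcription factor known from the proepicardium and epicardium, was among the genes that tracked Nppb in Tnnt2-high cells (mean rho 0.28). It was higher in Nppa-high than in Nppa-low cells in 10 of 11 libraries, with a log2 ratio of 1.496 ± 1.189 (SD, n = 11) and means of 21.6 and 8.87 CPM. The other proepicardial genes were low in Tnnt2-high cells: Tbx18 averaged 2.01 CPM, Tcf21 3.43 CPM and Upk3b 0.097 CPM, against 12.0 CPM for Wt1. Cited1, a transcriptional cofactor, was higher in Nppa-high cells in 10 of 11 libraries (1.35 ± 1.18, 143 against 51.5 CPM), while over all kept cells it was lower in Isl1Cre (-0.75 ± 0.17, limma adjusted p = 0.012). Its mean rho with Nppa was 0.24 across largely the same cells, so the first of these is no separate result.

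At E9.25, 5 kept cells under 2000 CPM of Tnnt2 held at least 300 CPM of Nppa, up to 847 CPM, and 1 held 408 CPM of Nppb. At E8.25 and E8.75 no cell under that Tnnt2 level reached 300 CPM of either gene; the highest were 184 and 131 CPM of Nppa and 108 and 102 CPM of Nppb. At E7.75 the cells with at least 300 CPM of Nppb were 3, of which 1 was not Tnnt2-high (342 CPM).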
